A study of Mus musculus with 6 samples.

Results

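The genes described here are 9 transcription regulators known to maintain blood stem cells, Mecom, Prdm16, Hlf, Meis1, Gata2, Erg, Mllt3, Nkx2-3 and Zfp521, a list that leaves out the Hox clusters and the Myc family. They were chosen by name, with earlier results of these data known. Each was read from the array row that the platform annotation ties to that gene alone. Where a gene had more than 1 such row, the brightest on average was used. All 9 had a row among the 19938 genes measured, and Mecom alone had a second row. The samples were LSK CD150- cells, sorted by flow cytometry from mouse bone marrow: LSK cells lack mature lineage markers and carry Sca-1 and Kit, and the gate took those that lack CD150, which long-term stem cells carry. The marrow was first enriched for Kit. The mice compared were Cebpafl/fl;Mx1Cre (3 mice, called deleted) and, as controls, Cebpafl/fl without the transgene (3 mice). Mice of both genotypes carried the floxed Cebpa alleles, received pIpC, a double-stranded RNA, and were taken at day 18, and the design text has the specimen of each mouse on an array of its own. The Mx1 promoter that drives Cre answers to interferon in many cell types and not in blood cells alone, and no control carried Cre without the floxed alleles, so the transgene and the loss of Cebpa cannot be told apart. The labels used here give no age.

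Stem cell transcription factors hold a blood stem cell in an undifferentiated, self-renewing state, and most of them are turned down as cells commit to a lineage. Mecom and Prdm16 encode related zinc-finger proteins with a PR domain, Hlf a leucine-zipper factor of the PAR family, and Meis1 a homeodomain protein that binds DNA together with Pbx and Hox proteins. Gata2 and Erg belong to the heptad, a group of factors that bind many enhancers together in blood progenitors. Mllt3, also called AF9, reads acetylated histones and belongs to the elongation machinery, Nkx2-3 is a homeodomain factor, and Zfp521 is a protein with many zinc fingers. Cebpa encodes C/EBPα, a factor of the granulocyte and monocyte lineages.

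Promoter sequences are shown for the 3 genes that fell after deletion, Mecom, Hlf and Meis1, and for Prdm16, the relative of Mecom. They come from RefSeq (GRCm38.p6), cover 250 bases before to 50 after a transcript start and are written 5′ to 3′ on the strand of the gene. RefSeq windows were matched for 8 of the 9 genes, 13 windows in all. Mecom has 2 starts that lie 496555 bases apart on the minus strand of chromosome 3. In the first pair of sequences, that of the upstream Mecom start (chr3:30509710-30510009, minus strand) and that of Prdm16 (chr4:154636824-154637123, minus strand), capitals mark the longest stretch that both share without a mismatch.
Mecom, upstream start: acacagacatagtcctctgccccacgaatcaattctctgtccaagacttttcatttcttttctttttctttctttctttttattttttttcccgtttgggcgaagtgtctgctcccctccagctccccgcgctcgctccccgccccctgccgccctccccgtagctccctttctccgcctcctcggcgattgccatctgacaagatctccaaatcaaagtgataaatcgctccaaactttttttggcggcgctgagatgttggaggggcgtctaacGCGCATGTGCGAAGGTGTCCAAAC
Prdm16: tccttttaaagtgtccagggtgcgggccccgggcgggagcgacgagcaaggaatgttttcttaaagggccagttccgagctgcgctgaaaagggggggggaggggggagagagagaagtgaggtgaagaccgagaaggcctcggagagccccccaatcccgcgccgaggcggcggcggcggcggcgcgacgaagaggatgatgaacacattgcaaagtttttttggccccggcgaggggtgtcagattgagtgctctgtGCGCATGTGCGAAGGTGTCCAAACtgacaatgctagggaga
The shared stretch of 24 bases begins at base 27 in the Mecom window and at base 10 in the Prdm16 window, counting the start as base 1. It runs to the last base of the Mecom window, so whether the match goes on beyond that window is not known. Of 32851 windows in the RefSeq table, 2 hold the 24 bases on either strand, those of these genes.

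In the next sequences, from the downstream Mecom start (chr3:30013155-30013454, minus strand), Hlf (chr11:90390868-90391167, minus strand) and Meis1 (chr11:19018920-19019219, minus strand), capitals mark matches to the motifs named after them.
Mecom, downstream start: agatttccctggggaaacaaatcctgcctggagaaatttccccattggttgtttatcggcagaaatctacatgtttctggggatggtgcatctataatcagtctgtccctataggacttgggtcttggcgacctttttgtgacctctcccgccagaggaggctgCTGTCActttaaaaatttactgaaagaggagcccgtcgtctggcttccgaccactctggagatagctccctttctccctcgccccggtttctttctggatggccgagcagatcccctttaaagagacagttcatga
Hlf: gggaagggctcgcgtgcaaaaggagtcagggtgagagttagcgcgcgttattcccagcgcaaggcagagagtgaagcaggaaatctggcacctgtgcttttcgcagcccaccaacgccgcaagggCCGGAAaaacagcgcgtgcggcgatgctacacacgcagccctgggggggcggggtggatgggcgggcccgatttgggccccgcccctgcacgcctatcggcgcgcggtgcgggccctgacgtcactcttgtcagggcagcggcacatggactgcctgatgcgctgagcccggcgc
Meis1: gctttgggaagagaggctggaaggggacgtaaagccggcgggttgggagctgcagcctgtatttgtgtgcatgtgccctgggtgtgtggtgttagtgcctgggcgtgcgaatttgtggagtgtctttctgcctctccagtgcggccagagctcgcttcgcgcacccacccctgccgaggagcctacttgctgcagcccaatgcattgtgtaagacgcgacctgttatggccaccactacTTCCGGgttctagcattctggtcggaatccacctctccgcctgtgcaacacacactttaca
The motif searched for C/EBP was TTGCNNAA, on both strands here as for the others. For GATA factors it was TGATAA. For ETS factors the letters were CCGGAA. Those for Meis proteins were TGACAG. PAR factors, the family of Hlf, were searched with TTACGTAA. The downstream Mecom window holds 1 Meis motif, at base -86, and the Hlf and Meis1 windows hold 1 ETS motif each, at bases -125 and -11. The upstream Mecom window holds 1 GATA motif, at base -31, and the Prdm16 window none of the 5. Apart from that of PAR factors, these letters are common: the ETS motif occurs in 14.9% of all windows, the Meis motif in 19.2%, the GATA motif in 9.05%, the C/EBP motif in 10.8% and the PAR motif in 0.119%. None of the 4 windows of Mecom, Hlf and Meis1 holds the C/EBP letters, whereas 2 of the 3 Erg windows do, at bases -48 and -187. Such matches describe the letters of these windows only.

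The arrays were of similar overall level, with a median of all rows between 6.16 and 6.20 on the log2 scale on deleted arrays and between 6.22 and 6.23 on control arrays. Pearson's r across genes, which are not independent replicates, was 0.987 to 0.989 among deleted arrays, 0.989 to 0.990 among control arrays and 0.979 to 0.986 between the genotypes. The targeted gene Cebpa read 6.37, 5.82 and 6.09 in deleted mice a, b and c, against 7.84, 7.85 and 7.73 in control mice, a log2 fold change of -1.71 ± 0.14 (SE, limma adjusted p = 0.000883). No source used here says whether its row reads the deleted sequence. The labels call the mice female, but the Y-linked Kdm5d read 8.07 to 8.28 on deleted and 8.20 to 8.48 on control arrays, and Xist 4.64 to 5.02 and 4.46 to 5.13, which goes against that label in both genotypes. No detection calls were used, so how far a dim row stands above background is not known. With 3 arrays a genotype, precision is limited by their number.

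After deletion of Cebpa, Mecom, Hlf and Meis1 fell, and none of the 9 genes rose. The count of 3 lower genes is 33.3% of the 9, where 0.732% of all 19938 genes were called lower, 0.702% higher and 1.43% in either direction (limma, adjusted p under 0.05 over all genes). The log2 fold changes of the 9 genes had a median of -0.32, against 0.029 over all genes, and 8 of 9 were negative, against 43.5% of all genes. In 5 of the 9 genes, Mecom, Hlf, Meis1, Mllt3 and Erg, every deleted array read below every control array, which was so for 8.68% of all genes; the genotypes did not overlap in either direction for 21.2%. An unadjusted p under 0.05 was reached by the same 5 genes, and by 15.9% of all genes. Because the 9 genes were chosen with earlier results of these data known, these shares describe them and are no test of enrichment. Each array read the RNA of all sorted cells of a mouse, so fewer cells that express a gene and less of its RNA per cell cannot be told apart.

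**Figure D1:**
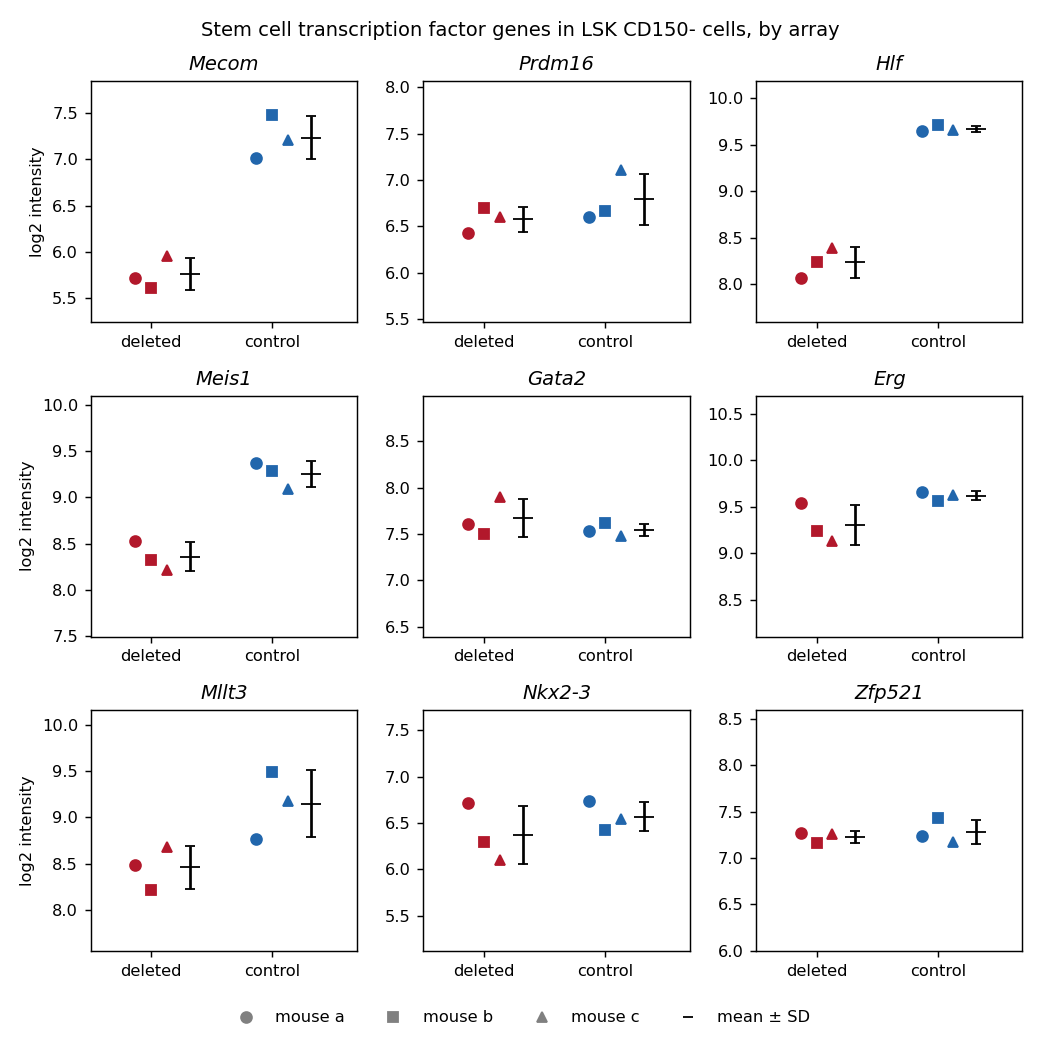
Log2 intensity (vertical axis) of the 9 genes on each array, with the 3 deleted mice left and the 3 control mice right in each panel; points are single mice, bars are mean ± SD (n = 3), and every panel spans the same number of log2 units. The genotypes are far apart for Mecom and Hlf, separated by 0.56 between the nearest arrays for Meis1, and overlap for Prdm16, Gata2, Nkx2-3 and Zfp521.

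Among the zinc-finger genes with a PR domain, Mecom fell 2.77-fold (95% interval 2.22 to 3.47). Its row (probe set 10497590) read 5.72, 5.61 and 5.96 in deleted mice a, b and c, against 7.01, 7.48 and 7.21 in control mice. The highest deleted value lay 1.06 below the lowest control value. The means were 5.76 ± 0.18 in deleted and 7.23 ± 0.23 in control mice (SD, n = 3 each), and the log2 fold change was -1.47 ± 0.14 (SE, limma adjusted p = 0.00275). Ranked from the most negative log2 fold change, Mecom stood at place 12 of all 19938 genes. All its deleted values lay below 6.20, the median of all values on the 6 arrays.

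The second Mecom row showed the same direction with a smaller difference. The platform annotation ties the row used above to 7 transcript records and the second row (probe set 10497608) to 3, of which 1 is in both sets. No source used here says which of the separate starts each row reads. The second row read 5.67, 5.83 and 5.99 in deleted mice, against 6.45, 7.09 and 6.78 in control mice, so that the genotypes did not overlap here either. Its log2 difference was -0.94 ± 0.18 (SE), a 1.92-fold lower reading. In the fit over all 35556 deposited rows, the second row had an adjusted p of 0.144 (unadjusted p = 0.00184) and the first an adjusted p of 0.0777 (unadjusted p = 6.5e-05), so neither row passed there. That fit also drew its moderated variances from all rows. In the limma fit with 1 row per gene, the first row had an unadjusted p of 1.93e-06. With the mean of both rows as the value of the gene and 1 value per gene, the log2 fold change was -1.21 (adjusted p = 0.00747).

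**Figure D2:**
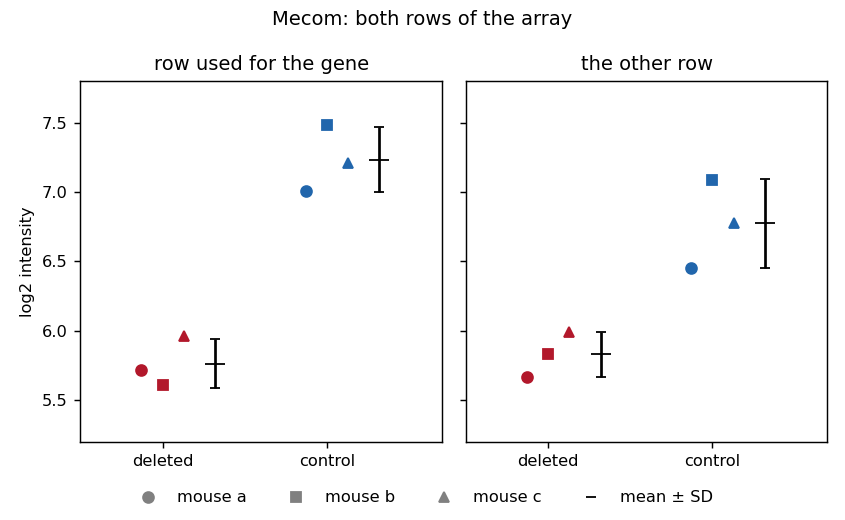
Log2 intensity (vertical axis) of both Mecom rows on each array, with deleted mice left and control mice right; points are single mice and bars mean ± SD (n = 3). In both rows all 3 deleted mice lie below all 3 control mice, with a gap of 1.06 in the row used for the gene and 0.46 in the other.

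Prdm16, the relative that shares the 24 bases printed above with the upstream Mecom window, was not called. It read 6.43, 6.70 and 6.60 in deleted mice, against 6.60, 6.67 and 7.11 in control mice, and the genotypes overlapped. The highest of its values was that of control c, and without that array the log2 fold change was -0.06 in place of -0.22 ± 0.15 (SE, adjusted p = 0.535). The 95% interval with all arrays ran from -0.55 to 0.12, which excludes a fall in this reading as large as that of Mecom. With no detection calls, how far the Prdm16 row stood above background is not known.

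Hlf fell 2.72-fold (95% interval 2.28 to 3.23). Its row read 8.06, 8.24 and 8.39 in deleted mice a, b and c, against 9.65, 9.71 and 9.66 in control mice. The control mice lay within 0.06 of each other, and the gap of 1.26 to the nearest deleted mouse was the widest among the 9 genes. The log2 fold change was -1.44 ± 0.11 (SE, limma adjusted p = 0.000744), and by p-value Hlf stood at place 6 of all genes. It was also the one gene of the 9 that passed when every deposited row was tested (adjusted p = 0.0396).

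Of the homeodomain genes, Meis1 fell 1.85-fold (95% interval 1.53 to 2.24). It read 8.53, 8.33 and 8.22 in deleted mice, against 9.37, 9.28 and 9.09 in control mice, with no overlap. The log2 fold change was -0.89 ± 0.12 (SE, limma adjusted p = 0.0117), which put it at place 75 from the most negative. The call was lost without deleted b (adjusted p = 0.0554), without control b (0.0553) and when every deposited row was tested (0.0989), while the log2 fold change stayed between -0.98 and -0.82 with any array left out. Nkx2-3, whose product also regulates the homing of lymphocytes to mucosal vessels and the spleen, read 6.72, 6.30 and 6.10 in deleted mice, against 6.73, 6.42 and 6.55 in control mice. The mice of the genotypes overlapped, and the log2 fold change of -0.20 ± 0.16 (SE, adjusted p = 0.616) had an interval from -0.56 to 0.17.

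Mllt3 was lower in every deleted mouse but did not pass over all genes. It read 8.49, 8.22 and 8.68 in deleted mice, against 8.77, 9.49 and 9.18 in control mice, so that deleted c and control a lay 0.09 apart. The control mice spread most of all members here, with an SD of 0.36. The log2 fold change was -0.69 ± 0.19 (SE, limma adjusted p = 0.110, unadjusted p = 0.00444), and it ran from -0.87 without control a to -0.51 without control b. The adjusted p was 0.0638 at its lowest, without control a, over all alternatives.

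The heptad members Erg and Gata2 did not pass. Erg, a factor of the ETS family that stem cells and endothelium share, read 9.54, 9.24 and 9.13 in deleted mice, against 9.66, 9.57 and 9.63 in control mice. The control mice were close together, and deleted a lay 0.02 below the lowest of them, with b and c further down. The log2 fold change was -0.32 ± 0.12 (SE, adjusted p = 0.253, unadjusted p = 0.0301). Gata2, which stem cells share with mast cells and megakaryocyte progenitors, read 7.61, 7.50 and 7.90 in deleted mice, against 7.53, 7.61 and 7.48 in control mice. It was the one gene of the 9 with a positive log2 fold change, 0.13 ± 0.12 (SE, adjusted p = 0.679). Its interval of -0.15 to 0.40 excludes a fall in its reading of the size seen for Meis1.

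Zfp521 read 7.27, 7.16 and 7.26 in deleted mice, against 7.24, 7.43 and 7.18 in control mice. The genotypes overlapped, and the log2 fold change of -0.05 ± 0.11 (SE, adjusted p = 0.871) had an interval from -0.29 to 0.19. Its sign turned to 0.02 after quantile normalization and without control b.

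**Figure D3:**
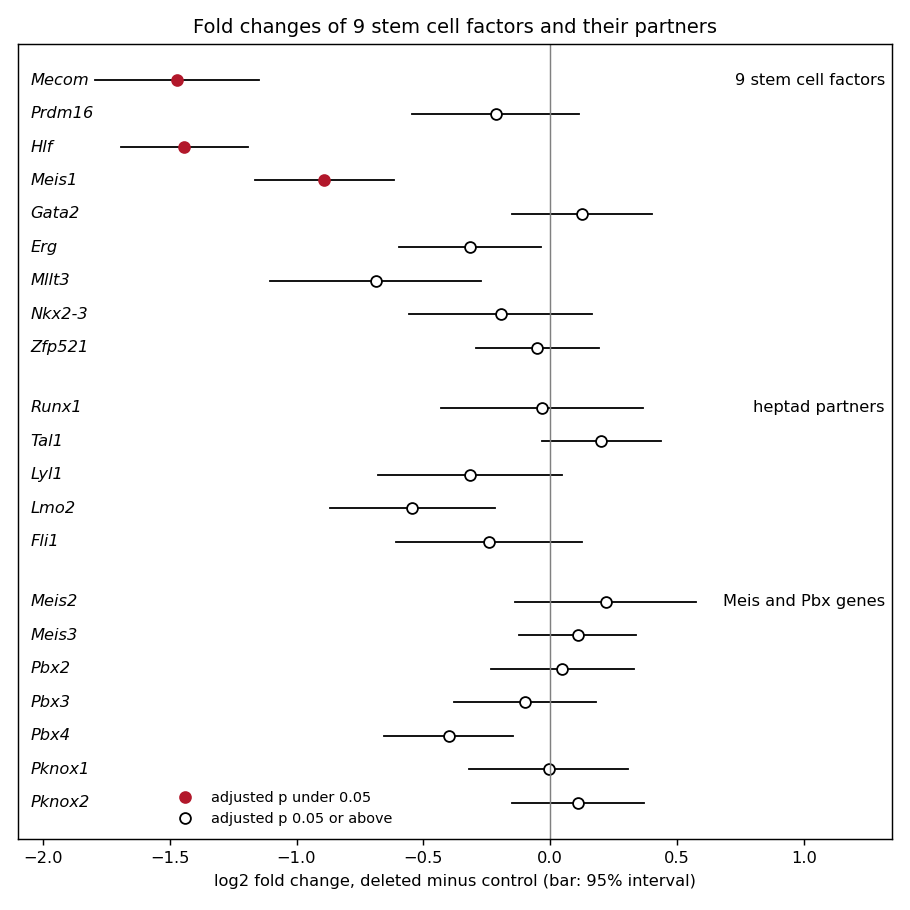
Log2 fold change, deleted minus control (horizontal axis), with its 95% interval from the limma fit, for the 9 genes, the heptad partners and the Meis and Pbx genes; filled points had an adjusted p under 0.05 over all genes. The filled points are Mecom, Hlf and Meis1, at -1.47, -1.44 and -0.89, and no partner gene is filled.

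Known partners, relatives and targets of these factors were counted in the same fit. Of 69 distinct genes in 7 lists, other than the 9 themselves, 65 were measured, and 0 rose or fell in the limma fit or in any of its 16 alternatives. With 1.43% of all genes called, this count is near the share over all genes. An unadjusted p under 0.05 was reached by 14 of the 65 (21.5%), against 15.9% of all genes, and the median log2 fold change was -0.01. Among the 5 heptad partners, Runx1, Tal1, Lyl1, Lmo2 and Fli1, the median was -0.24. Lmo2, the bridging protein of the complex, read 9.97, 9.86 and 9.60 in deleted mice, against 10.31, 10.60 and 10.16 in control mice (log2 fold change -0.54 ± 0.15 SE, adjusted p = 0.106). Its genotypes did not overlap. Lyl1, a basic helix-loop-helix factor, was at -0.32 (adjusted p = 0.389).

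Of the Meis and Pbx homeodomain genes, which include the DNA-binding partners of Meis1, 7 of 8 were measured, with a median log2 fold change of 0.05. Pbx4 was at -0.40 (adjusted p = 0.126) and Meis2, a relative of Meis1, at 0.22 (adjusted p = 0.563). Of 13 close relatives of the 9 genes, 12 were measured, with a median log2 fold change of 0.08. Gata1, the erythroid relative of Gata2, was at 0.29 (adjusted p = 0.265), and Nfil3, a leucine-zipper factor related to Hlf, at 0.54 (adjusted p = 0.394). Some genes stand in more than 1 of the 7 lists.

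The elongation and Dot1l complexes, in which Mllt3 takes part, had 17 of 17 genes measured and a median of 0.05. Kmt2a, the histone methyltransferase MLL1 and itself needed by blood stem cells, came closest to the threshold. It read 9.75, 9.56 and 9.74 in deleted mice, against 10.00, 10.51 and 10.27 in control mice, without overlap (log2 fold change -0.58 ± 0.14 SE, adjusted p = 0.0811). Psip1, which tethers MLL1 to chromatin, was at 0.31 (adjusted p = 0.184).

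Of 17 other stem cell transcription factors, all measured, the median was -0.06, with Cited2, a coactivator-binding protein, at 0.40 (adjusted p = 0.193) and Hes1, a target of Notch signalling, at 0.49 (adjusted p = 0.207). Most of the list went the other way: 12 of 17 log2 fold changes were negative, the lowest at -0.32. Of 8 corepressors of Mecom and Prdm16, 7 were measured, with a median of -0.08; the deacetylase Hdac2 was at 0.31 (adjusted p = 0.181) and the methyltransferase Setdb1 at -0.33 (adjusted p = 0.219). Of 9 reported targets, 7 were measured, with a median of 0.00. Hif1a, the oxygen-response factor and a reported target of Meis1 in mouse stem cells, was at 0.42 (adjusted p = 0.126). Gata2, a reported target of Mecom, was among them.

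Some surface genes of the sorted population moved beside the 3 factors. Of 6 genes that mark or divide the LSK gate, 5 were measured: Kit and Flt3 fell, Cd48 rose, and Cd34 and Slamf1 did not pass. Kit, the stem cell factor receptor used in the sort, read 9.59, 9.37 and 9.23 in deleted mice, against 10.02, 10.31 and 10.10 in control mice (log2 fold change -0.75 ± 0.13 SE, adjusted p = 0.027). Flt3, a cytokine receptor of lymphoid-primed progenitors, read 8.96, 9.24 and 9.53 in deleted mice, against 9.90, 9.98 and 9.99 in control mice (adjusted p = 0.0469). Cd48, a surface protein that stem cells lack and many multipotent progenitors carry, read 10.96, 10.74 and 10.67 in deleted mice, against 9.87, 9.78 and 9.71 in control mice (2.01-fold higher, limma adjusted p = 0.0052). Slamf1, which encodes CD150, the protein selected against, was dim, at 3.94 to 4.86 in deleted and 3.48 to 3.93 in control mice. Of 9 surface markers of stem cells 8 were measured, and Procr alone fell, 1.95-fold (adjusted p = 0.00854), at 6.31, 6.49 and 6.53 in deleted mice against 7.50, 7.52 and 7.22 in control mice. Tek, an angiopoietin receptor, was at -0.46 (adjusted p = 0.0965). Slamf1, which is in this list too, was at 0.53 (adjusted p = 0.314). Esam was at -0.59 (limma adjusted p = 0.123), with every deleted array below every control array. Robo4, Fgd5, Ctnnal1 and Vwf were at -0.20, -0.13, 0.01 and 0.04. The median of the 8 was -0.16, and 5 of 8 log2 fold changes were negative. The summed intensity of the 8, as log2, was 9.01 to 9.13 on deleted and 9.35 to 9.38 on control arrays. Whether a different make-up of the sorted cells has a part in the falls of Mecom, Hlf and Meis1 was not tested.

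**Figure D4:**
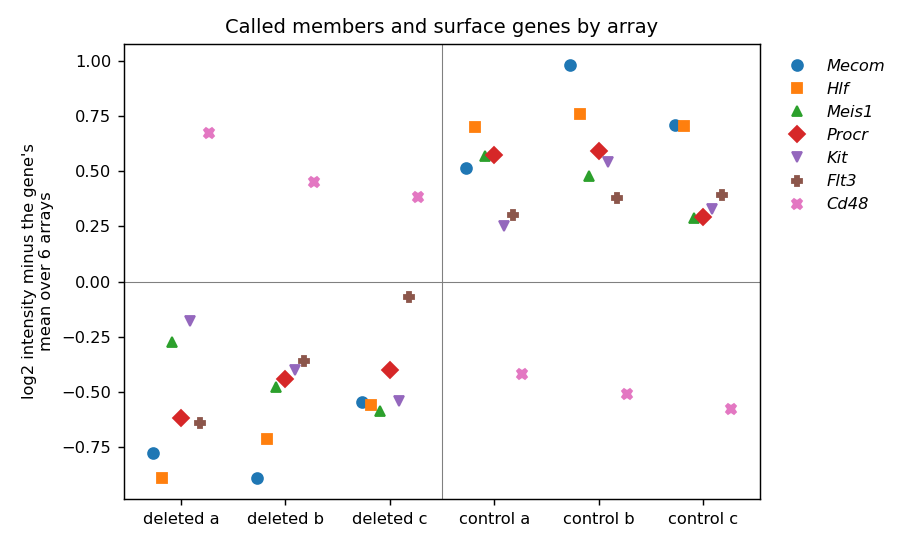
Log2 intensity minus the gene's own mean over the 6 arrays (vertical axis) for Mecom, Hlf, Meis1 and the called surface genes Procr, Kit, Flt3 and Cd48. The deleted arrays are left and the control arrays right, and each point is 1 array. Cd48 lies above 0 on the deleted arrays and below it on the control arrays, and the other genes run the opposite way.

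Markers of other cell types that use some of these factors were also read. Of 9 endothelial genes, all measured, Emcn alone fell (log2 fold change -0.97 ± 0.18 SE, adjusted p = 0.038). Tie1, a receptor of endothelium, read 7.23, 7.16 and 7.16 in deleted mice, against 7.62, 8.04 and 7.61 in control mice (adjusted p = 0.0687). Pecam1, which blood cells carry too, had a log2 fold change of 0.51, Cdh5 one of 0.10 and Kdr one of 0.06, none of them past the threshold, and the median of the 9 was 0.06. The log2 of the summed endothelial intensity was 9.95 to 10.12 on deleted and 9.89 to 10.17 on control arrays. Of 8 mast cell and basophil genes Cpa3 alone rose, by 3.47 on the log2 scale, while Cma1 was at -0.45 (adjusted p = 0.087). The median of the 8 was 0.03, and 4 of 8 log2 fold changes were negative. Their log2 sum was 11.47 to 11.78 on deleted and 9.23 to 9.32 on control arrays. On deleted arrays this sum was mostly that of Cpa3, which read 11.62, 11.28 and 11.25 there, against 7.83, 7.91 and 8.01 on control arrays. Of 8 megakaryocyte genes 6 were measured and none passed, with Itga2b at 0.44 (adjusted p = 0.104) and Itgb3 at 0.39 (adjusted p = 0.161). Pf4 went the other way, at -0.54 (limma adjusted p = 0.196). The median of the 6 was 0.08, and 2 of 6 log2 fold changes were negative. Their log2 sum was 9.31 to 9.37 on deleted and 9.32 to 9.39 on control arrays. Of 7 erythroid genes 4 were measured and none passed, with Alas2 at -0.28 (adjusted p = 0.356) and Gata1 at 0.29 (limma adjusted p = 0.265). The median of the 4 was -0.10, and 3 of 4 log2 fold changes were negative. Their log2 sum was 8.36 to 8.54 on deleted and 8.34 to 8.53 on control arrays. Of 7 neutrophil genes, all measured, S100a8, S100a9 and Camp fell, with log2 fold changes of -3.51, -3.37 and -0.97; 6 of 7 log2 fold changes were negative, with a median of -0.61. The mean log2 level of the 7 was 6.26 to 6.45 on deleted and 7.51 to 7.72 on control arrays. Their log2 sum, 11.32 to 11.96 on deleted and 11.62 to 11.98 on control arrays, was mostly that of Mpo, the one with a positive log2 fold change (0.25, adjusted p = 0.616). None of 4 measured B cell genes passed, with Ebf1 at 0.25 and Cd79a at 0.34 (adjusted p = 0.401 and 0.514; log2 sum 8.10 to 8.55 on deleted and 7.94 to 8.33 on control arrays). None of 5 genes of T and NK cells passed, with Ncr1 at 0.33 and Cd3e at -0.22 (adjusted p = 0.205 and 0.412). The median of the 5 was 0.30, and 1 of 5 log2 fold changes was negative. Their log2 sum was 9.53 to 9.89 on deleted and 9.34 to 9.62 on control arrays. Of 5 stromal genes Pdgfrb alone rose, by 0.99 on the log2 scale (log2 sum 8.90 to 8.93 on deleted and 8.47 to 8.61 on control arrays). Cxcl12, Lepr, Pdgfra and Col1a1 were at 0.01, 0.02, 0.05 and -0.04, and the median of the 5 was 0.02. The part of such cells in the results was not tested.

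Leaving out single arrays separated the 3 lower genes. Mecom passed with any one array left out, with adjusted p-values of at most 0.0201 and log2 fold changes of -1.58 to -1.35. Hlf did so with adjusted p-values of at most 0.00723 and log2 fold changes of -1.52 to -1.36. Meis1 passed in 4 of the 6 cases. None of the other 6 genes passed in any of them.

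**Figure D5:**
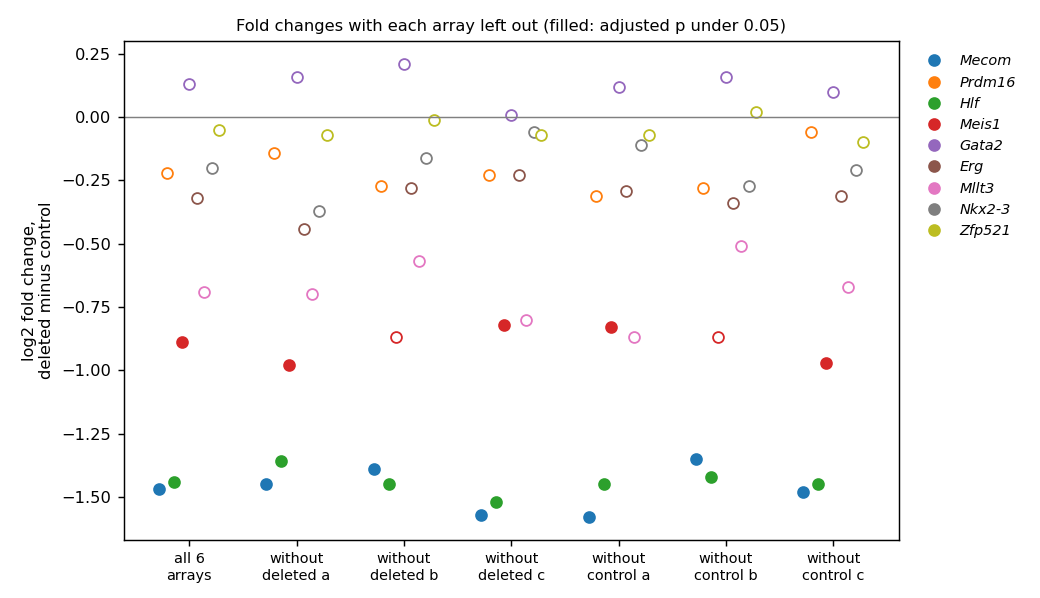
Log2 fold change, deleted minus control (vertical axis), of the 9 genes with all 6 arrays and with each array left out in turn (horizontal axis); filled points had an adjusted p under 0.05 over all genes. Mecom and Hlf are filled throughout, and Meis1 is open without deleted b and without control b.

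The genes whose profile over the 6 arrays lay closest to each of the 3 lower genes were found by the root mean square difference of log2 values after centring each gene on its mean. The measure takes in the genotype difference and the spread within genotypes together, and all genes share the 6 arrays, so it is a description. Closest to Mecom were Prkg1, a cGMP-dependent kinase (0.145), Hlf itself (0.147), the hexokinase Hk3 (0.180), Tceal5 (0.182) and the transcription factor Tfec (0.199). Closest to Hlf were Prkg1 (0.118), Mecom (0.147), Tmem243 (0.151), Bex1 (0.172) and Hk3 (0.174). Mecom and Hlf were thus in each other's list, with Prkg1 and Hk3 in both. Prkg1 read 6.06, 5.98 and 6.22 in deleted mice, against 7.28, 7.42 and 7.34 in control mice.

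Meis1 had a log2 fold change of -0.89, against -1.47 for Mecom and -1.44 for Hlf. The measure favours genes with a like genotype difference, and Meis1 had other neighbours. They were Nynrin (0.048), the thioredoxin-binding Txnip (0.069), the cyclophilin Ppic (0.085), the glutathione transferase Mgst1 (0.087) and the chemokine Ccl19 (0.091), whose locus holds near-identical copies in mouse, so that its row is uncertain. Nynrin read 8.50, 8.35 and 8.15 in deleted mice, against 9.34, 9.29 and 8.97 in control mice. Of the 9 genes, the nearest to Meis1 by this measure was Erg, at 0.301. Mllt3, Hlf, Nkx2-3 and Mecom followed at 0.325, 0.342, 0.371 and 0.378.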

How the data were processed

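Total RNA from sorted cells was amplified and hybridised to 1-colour Affymetrix Mouse Gene 1.0 ST arrays, 1 per mouse. Values per probe set were deposited on the log2 scale; the submitters' processing notes name RMA and Affymetrix Expression Console 1.1.2, without settings or build. The 35556 rows entered as deposited, with no filter on dim rows. Rows naming 1 gene gave 19938 genes, and RefSeq (GRCm38.p6) supplied current symbols and promoter windows.

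The test was limma 3.58.1 (R 4.3.3, lmFit and eBayes, no block), two-sided; p-values were adjusted by Benjamini-Hochberg across the 19938 genes, with the call at 0.05. The fit was tested on simulated data. Log2 fold changes are deleted minus control with moderated SE. Alternatives changed the prior, scaling, filter, rows per gene, pairing and arrays used. Named genes were Cebpa, the 9 genes, each list's called genes and leading genes by p, and for Mecom, Hlf and Meis1 the 5 genes of closest profile (symbols with no descriptive name, antigen receptor segments and short RNAs left out); Xist, the Y-linked genes and some marker genes were named outside that rule. The 9 genes and the lists were chosen with earlier results of these data known. Figures used matplotlib 3.10.9.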

Additional observations from a re-analysis of the deposited data

How the results depend on the processing

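The count of 3 lower genes among the 9 held under changes of the variance prior, 3 other scalings, both filters on dim rows and averaging the rows of a gene, and was 1, Hlf, when every deposited row was tested and 2 to 3 with single arrays left out. The count over all genes, 286, was 438 among genes at or above the median mean level, 13 among all deposited rows and 53 to 250 with single arrays left out, without control b and without control c. It was 145 without deleted a, 84 without deleted b, 143 without deleted c and 126 without control a. Sample titles share the letters a, b and c, but same-letter samples did not deviate together (correlations of -0.01, -0.04 and 0.06), and with the letter as a replicate block 274 genes and the same 3 of the 9 passed. Mecom, Hlf, Meis1, Mllt3, Erg, Prdm16 and Nkx2-3 were negative in all 16 alternatives and Gata2 positive in all 16. Cebpa missed the threshold when every deposited row was tested (log2 fold change -1.71, adjusted p = 0.0513). The median log2 fold change of all genes ran from 0.006 to 0.077 over the alternatives. With no detection calls, how far signal stood above background is unknown, which limits the dim deleted values of Mecom.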

Other observations

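The heptad genes were uneven among the deleted mice. Runx1 read 8.99, 8.78 and 8.24 in deleted a, b and c, against 8.69, 8.84 and 8.58 in control mice, and Fli1 read 9.60, 8.96 and 9.18 against 9.54, 9.60 and 9.31. Of the 7 heptad genes, 5 read highest of the deleted mice on deleted a, where 39.2% of genes at or above the median mean level did so, and 4 read lowest on deleted c, where 34.8% did. This was noticed in these values, Runx1 and Fli1 were chosen after their values were seen, and nothing here was tested.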
